A study of Mus musculus with 18 samples.

Results

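Gnmt, Mat1a, Ahcy, Bhmt, Cbs, Cth, Pemt, Gamt and Sardh encode 9 enzymes of methionine and one-carbon metabolism, and their mRNAs were followed through 18 RNA sequencing libraries of cultured mouse hepatocytes. They were found by gene symbol in the deposited tables of comparisons with PBS and joined by Ensembl identifier to the raw read counts. All 9 were found among the 37991 genes counted, and all 9 were among the 11153 genes that passed the filter on low counts. The set was chosen by measured values of these same libraries: Gnmt was lower with scrambled REVERSIR than with PBS, and the other 8 genes were added by pathway. All differences between those groups are therefore given as a description, with no test read from them.

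The cells were cryopreserved, plateable hepatocytes from male mice of the outbred CD-1 stock. Every group shares them, and each group has 3 libraries of total RNA. The groups were PBS control, an siRNA, SCRA-RVR (a scrambled REVERSIR, R-61), TTR-RVR (a TTR REVERSIR, R-35), and the siRNA joined by either SCRA-RVR or TTR-RVR. A REVERSIR is a short synthetic oligonucleotide designed to pair with the guide strand of an siRNA and so to block silencing, and transthyretin (Ttr) is the target here. Dose, time and the number of animals were not given in the sources used here. Labels also leave it unsaid if replicates are separate cultures or animals. All p-values below thus measure only the spread between these libraries, which may be technical.

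The methionine cycle is most active in liver. Mat1a, the liver form of methionine adenosyltransferase, joins methionine to ATP and makes S-adenosylmethionine, the methyl donor of the cell. Methyltransferases such as Gnmt, Pemt and Gamt spend that methyl group and leave S-adenosylhomocysteine, which Ahcy splits to homocysteine and adenosine. Homocysteine is either methylated again, by Bhmt with betaine or by methionine synthase with folate, or passed through Cbs and Cth to cysteine. Gnmt is an abundant protein of hepatocytes that methylates glycine to sarcosine and so keeps the methyl donor from building up, and Sardh, in mitochondria, turns sarcosine back to glycine.

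Library totals ran from 1755819 to 10145265 counts, and the 3 scrambled REVERSIR libraries, at 1755819 to 2896366, were shallower than any PBS library (3871163 to 6753263). In PBS replicates 1 and 2 mitochondrial ribosomal RNA took 24.3% and 24.1% of counts, against 5.45% in PBS replicate 3 and 1.69% to 9.56% over the 16 libraries other than those 2. Ttr checked the labels: it stood at 21.8% ± 1.72 (SD, n = 3) of the PBS mean with the siRNA and 20.3% ± 0.0621 with siRNA and scrambled REVERSIR, and at 94.8% ± 10.1 to 114% ± 14.2 in the 3 other treated groups. Hepatocyte markers were at high levels, with albumin (Alb) at 36758 to 49584 CPM (reads divided by the library total after TMM scaling). Summed over 8 genes, mostly Alb, they ran from 51492 to 62043 CPM with PBS and from 47762 to 55303 CPM over the other groups. In each comparison with PBS other than scrambled REVERSIR, 1 of the 8 was lower past the edgeR test (adjusted p under 0.05). The shares of all genes called lower there ran from 0.359% to 1.6%, and the lowest log2 difference of the 8 from −0.62 to −0.55. Markers of other liver cells were mixed. Several were near 0, with the macrophage gene Emr1 at 0 to 0.683 CPM, the leukocyte gene Ptprc at 0 to 1.12, the bile duct gene Krt7 at 0 to 0.515 and the fibroblast gene Col1a1 at 0 to 0.683. No marker was at 0 in all 18 libraries, and the summed macrophage list, at 277 to 383 CPM, was mostly Cd68 (268 to 371). The endothelial list summed to 45.4 to 70.7 CPM, with Stab2 at 35.2 to 51.2, the stellate cell and fibroblast list to 35.5 to 50.5, with Dcn at 17.3 to 30.6, and the bile duct list to 9.84 to 16.9, with Krt19 at 4.16 to 7.81. In such bulk RNA, fewer cells of a type and less RNA per cell cannot be told apart.

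Ahcy was the most abundant of the 9 mRNAs. Per kilobase of annotated exon, its mean over the 18 libraries was 152 CPM, followed by Gnmt at 31.6, Cth at 28.8, Mat1a at 20.5, Cbs at 13.7, Pemt at 7.47, Sardh at 5.13, Bhmt at 4.54 and Gamt at 2.38. Most neighbours in this order kept it in 18 of 18 libraries. The exceptions were Gnmt over Cth, in 15 of 18 libraries, and Sardh over Bhmt, in 14 of 18, so the ranges of these neighbours overlap. Gamt, which makes creatine, rested on 4 to 40 reads per library and 356 in all, so that only large differences of it could be seen. Ahcy rested on 707 to 4419 reads per library, and Gnmt on 52 to 382.

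**Figure D1:**
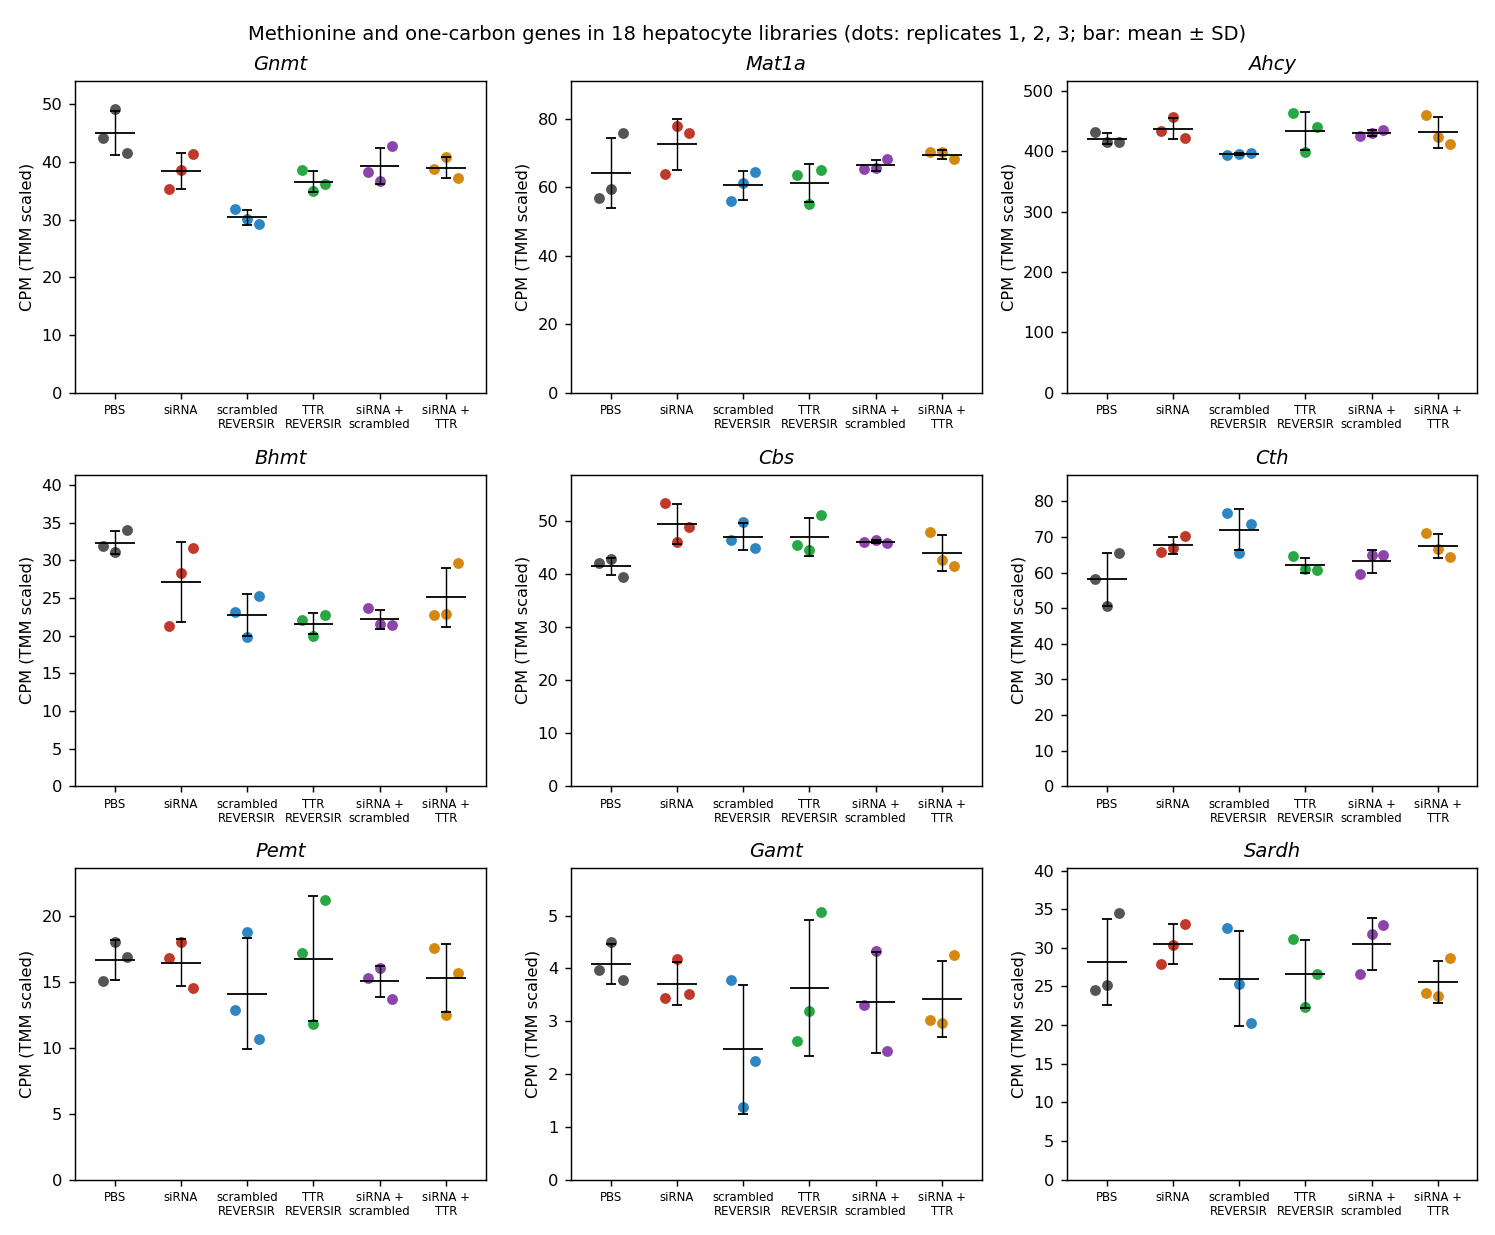
CPM after TMM scaling (y axis, from 0) of each of the 9 genes in the 6 groups (x axis), with 1 dot per library and the mean ± SD as a bar. Gnmt is lowest in the scrambled REVERSIR group, at 29.2 to 31.8 CPM, and Bhmt is highest with PBS among groups, at 31.1 to 34.0 CPM.

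Gnmt (ENSMUSG00000002769) lies on NCBIM37 chromosome 17, 46862613 to 46866117, on the minus strand. In PBS replicates 1, 2 and 3 it stood at 44.2, 49.1 and 41.6 CPM. With scrambled REVERSIR it stood at 31.8, 30.1 and 29.2 CPM. These were the 3 lowest values of the 18 libraries, and the groups did not overlap. The difference that chose the gene was −0.56 on the log2 scale, or 1.48-fold lower. In the authors' deposited table the same difference was −0.41. Fold changes in the authors' deposited tables appear shrunken towards 0 and are not on the same scale as those fitted here.

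In the groups that the choice did not use, the means of Gnmt lay between these levels. With the siRNA it stood at 35.3, 38.5 and 41.4 CPM, and with TTR REVERSIR at 38.5, 35.0 and 36.2 CPM. With siRNA and scrambled REVERSIR it stood at 38.3, 36.7 and 42.7 CPM, and with siRNA and TTR REVERSIR at 38.9, 40.8 and 37.2 CPM. These 4 groups overlapped with each other, and all 12 of their libraries were above every library treated with scrambled REVERSIR alone. Group means in order were PBS at 45.0 ± 3.81 CPM (SD, n = 3), then 39.2 ± 3.10, 39.0 ± 1.83, 38.4 ± 3.07 and 36.6 ± 1.79 for siRNA with scrambled REVERSIR, siRNA with TTR REVERSIR, siRNA, and TTR REVERSIR, and last scrambled REVERSIR at 30.4 ± 1.30. Both ends of this order are the groups on which the gene was chosen. The place of the other groups between them is a description, and nothing is read from it.

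Directions against PBS depend on the scaling. With library totals in place of TMM, the median of all genes rose by 0.29 to 0.33 on the log2 scale in the 5 comparisons with PBS, and every difference from PBS given here is relative to that shift. The Gnmt difference with scrambled REVERSIR was then −0.26, and its differences with the other treatments turned, to 0.11 with siRNA, 0.04 with TTR REVERSIR, 0.12 with siRNA and scrambled REVERSIR and 0.13 with siRNA and TTR REVERSIR, each still below the median of all genes. Bhmt was at −0.25 to −0.04 in 4 of the comparisons and turned, to 0.09, with siRNA.

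The scrambled REVERSIR added to the siRNA gave no measurable drop of Gnmt. Against siRNA alone the difference was 0.01 ± 0.09 on the log2 scale (standard error; 95% interval −0.16 to 0.19; edgeR with Benjamini-Hochberg adjustment over 11153 genes, adjusted p = 1.00). These libraries share none with the contrast that chose the gene. The interaction, the difference between the effects of scrambled REVERSIR with and without the siRNA, contains that contrast and was 0.58 for Gnmt, given as a description. In it 0 of the 9 members were past the threshold, beside 0.0179% of all genes, from which nothing is read.

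Gnmt with siRNA and scrambled REVERSIR was 0.36 above scrambled REVERSIR alone, and with TTR REVERSIR 0.28 above it, on the log2 scale. Both use the libraries on which the gene was chosen and are described without a test. In each of these comparisons 0 of the 9 members were past the threshold, beside 0.0179% of all genes, and nothing is read from it. The 3 scrambled REVERSIR libraries held 84, 88 and 52 Gnmt reads. Over the same libraries the summed level of 8 pericentral hepatocyte markers, most of it Cyp2e1, ran from 539 to 597 CPM, below the 621 to 705 CPM with PBS. It also lay below the 619 to 704 CPM with siRNA and the 643 to 657 CPM with siRNA and TTR REVERSIR. It just touched the 592 to 627 CPM with siRNA and scrambled REVERSIR and the 595 to 677 CPM with TTR REVERSIR. The 7 periportal markers summed to 562 to 597 CPM with scrambled REVERSIR and 558 to 579 CPM with PBS. The part of depth or of this shift in the Gnmt values was not tested.

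The start of the Gnmt gene is shown because the set was chosen on Gnmt, and beside it that of Bhmt, described next, the member past the test outside the contrast of choice. The stretch is NCBIM37 chr17:46866118-46866364, written 5′ to 3′ along the gene's minus strand and ending just before its annotated start. Capitals mark a nuclear receptor half-site, AGGTCA, which lies on the other strand and so reads TGACCT, and a CCAAT box, also on the other strand and so reading ATTGG.
Gnmt: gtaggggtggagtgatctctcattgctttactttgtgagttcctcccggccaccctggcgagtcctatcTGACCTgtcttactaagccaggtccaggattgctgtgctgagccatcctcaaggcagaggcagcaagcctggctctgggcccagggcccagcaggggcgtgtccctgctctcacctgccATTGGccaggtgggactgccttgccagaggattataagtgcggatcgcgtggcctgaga
The promoters of both genes hold the CCAAT box on the same side and at a like distance from the start that RefSeq gives (mouse build GRCm38.p6), 62 bases before it in Gnmt and 56 in Bhmt. The windows of 30 bases around it, at NCBIM37 chr17:46866157-46866186 and chr13:94407750-94407779, both on the minus strand, are set side by side, with the same motifs in capitals. The start of Bhmt differs between the annotations: NCBIM37 places it farther upstream, so that this Bhmt window lies inside the gene as annotated there, and its 250-base stretch overlaps an annotated exon.
Gnmt: ctcacctgccATTGGccaggtgggactgcc
Bhmt: gaggcctgctATTGGacaaAGGTCAgtgtg
Both strands were searched in the 250 bases before the RefSeq start, and the motifs do not overlap each other in these windows. CCAAT was found in 5 of the 7 members with an entry (Gnmt, Ahcy, Bhmt, Cbs and Pemt) and in 33.85% of 32851 RefSeq promoters. AGGTCA was found in 4 of 7 (Gnmt, Ahcy, Bhmt and Sardh) and in 14.02% of promoters, with 3 matches in Bhmt, TATAAA in 0 of 7 and 12.37%, and GGGCGG in 3 of 7 and 32.74%. A member is counted once if any of its promoters held the motif, while the shares are over single promoters, so the units are not the same. These are matches of letters and no record of binding.

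Bhmt (ENSMUSG00000074768; NCBIM37 chromosome 13, 94386846 to 94407916, minus strand) encodes the betaine-dependent enzyme that turns homocysteine back to methionine. In PBS replicates 1, 2 and 3 it stood at 31.9, 31.1 and 34.0 CPM. With siRNA and scrambled REVERSIR it stood at 23.6, 21.6 and 21.4 CPM, with no overlap. Bhmt fell by 0.54 ± 0.13 on the log2 scale in that comparison, 1.45-fold, and just passed the threshold (edgeR adjusted p = 0.0499). It was the 1 member of 9 past the test in this comparison, beside 0.61% of all genes tested, 0.206% higher and 0.403% lower.

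The call on Bhmt is a narrow one. It was lost without any 1 of PBS replicate 1 (adjusted p = 0.323), PBS replicate 2 (0.172), or siRNA with scrambled REVERSIR replicate 1 (0.0738), 2 (0.171) or 3 (0.150), and kept without PBS replicate 3 (0.0257). It was also lost in an edgeR fit of only these groups (0.0905), and with library totals in place of TMM, where the difference was −0.23 while the median of all genes moved to 0.32. Without both PBS libraries of high mitochondrial ribosomal RNA the difference was as large, −0.61, against the 1 PBS library left, and had adjusted p = 1.00. With DESeq2 the adjusted p was 0.0215, while the authors' deposited table gives −0.37 with no adjusted p for it. The PBS libraries are those of the contrast that chose Gnmt.

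The 4 other treated groups had lower Bhmt values than PBS too, without passing the test. With TTR REVERSIR it stood at 22.0, 20.01 and 22.7 CPM, a difference of −0.56 ± 0.14 (95% interval −0.86 to −0.27; edgeR adjusted p = 0.0593). The groups did not overlap, and the authors' deposited table lists this gene at −0.37 with adjusted p = 0.0240. With siRNA and TTR REVERSIR it stood at 22.8, 22.8 and 29.6 CPM, again below all PBS libraries (−0.37 ± 0.13, edgeR adjusted p = 0.134). With scrambled REVERSIR it stood at 23.1, 19.8 and 25.3 CPM, a difference of −0.53 described without a test. With the siRNA the 3 libraries spread from 21.3 over 28.3 to 31.7 CPM and overlapped with PBS (−0.23 ± 0.13, edgeR adjusted p = 0.319).

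Among the treated groups Bhmt did not pass any test. Scrambled REVERSIR added to the siRNA gave −0.31 ± 0.12 (95% interval −0.56 to −0.05; edgeR adjusted p = 1.00), the largest difference among the 9 members in that comparison, and the groups overlapped. For siRNA with TTR REVERSIR against siRNA it was −0.14 ± 0.12. A test of any difference among the 4 groups other than PBS and scrambled REVERSIR gave edgeR adjusted p = 1.00 for Bhmt and for Gnmt. In that test 0 of the 9 members passed, beside 0.00897% of all genes.

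**Figure D2:**
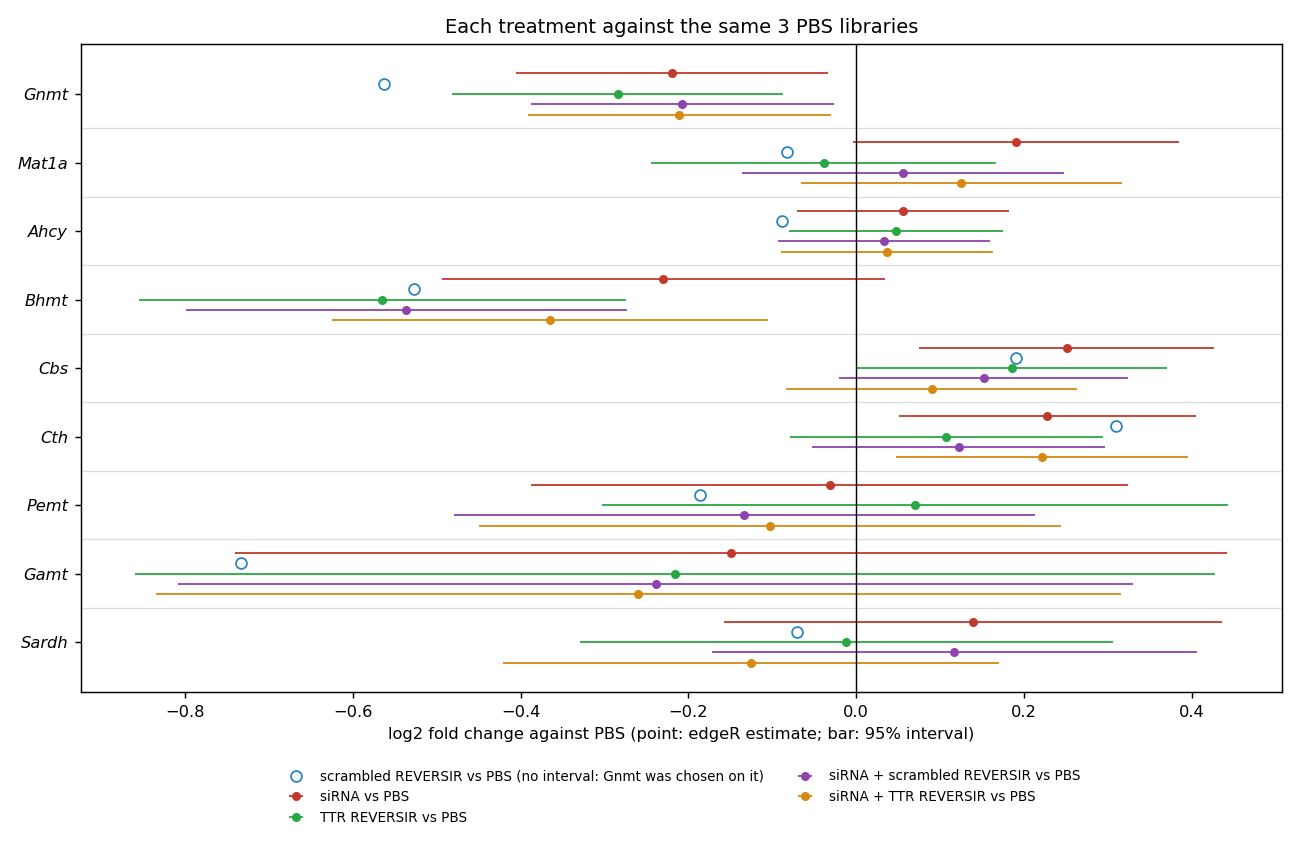
Log2 fold change against PBS (x axis) of the 9 genes (y axis) for the 5 treatments, as edgeR estimates with 95% intervals, all against the same 3 PBS libraries. Gnmt, Bhmt and Gamt lie left of 0 in all 5 comparisons and Cbs and Cth right of 0, and open circles without intervals mark scrambled REVERSIR, on which Gnmt was chosen. The Gnmt intervals use the PBS libraries on which the gene was chosen, so nothing is read from them. With library totals in place of TMM, Gnmt and Gamt lie left of 0 with scrambled REVERSIR alone, and Bhmt lies right of 0 with siRNA.

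Cbs and Cth, the enzymes that carry homocysteine through cystathionine to cysteine, ran the other way. Cbs (ENSMUSG00000024039; NCBIM37 chromosome 17, 31749568 to 31774144, minus strand) stood at 42.1, 42.8 and 39.6 CPM with PBS. With the siRNA it stood at 53.5, 46.1 and 48.9 CPM, above all PBS libraries. The difference was 0.25 ± 0.09 on the log2 scale (95% interval 0.07 to 0.43; edgeR adjusted p = 0.101) and did not pass. Group means of Cbs were 47.1 ± 2.51, 47.1 ± 3.57 and 46.1 ± 0.279 CPM with scrambled REVERSIR, TTR REVERSIR, and siRNA with scrambled REVERSIR, also with no overlap with PBS, and 44.1 ± 3.38 CPM with siRNA and TTR REVERSIR, which overlapped.

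Cth (ENSMUSG00000028179; NCBIM37 chromosome 3, 157557212 to 157588041, minus strand) stood at 58.1, 50.5 and 65.5 CPM with PBS. It stood at 65.9, 66.8 and 70.3 CPM with the siRNA and at 76.8, 65.6 and 73.6 CPM with scrambled REVERSIR, the highest group. Neither overlapped with PBS, though PBS replicate 3 lay just under the lowest library of each. The siRNA difference was 0.23 ± 0.09 (edgeR adjusted p = 0.137), and that of siRNA with TTR REVERSIR was 0.22 ± 0.08 (adjusted p = 0.172). With scrambled REVERSIR added to the siRNA, Cth was at 59.5, 65.03 and 64.9 CPM, below all siRNA libraries, a difference of −0.11 ± 0.08 (95% interval −0.27 to 0.06; edgeR adjusted p = 1.00).

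Mat1a (NCBIM37 chromosome 14, 41918670 to 41937701, plus strand) and Ahcy (chromosome 2, 154885046 to 154900233, minus strand), which make the methyl donor and clear its product, passed no test against PBS. Group means of Mat1a ran from 60.6 CPM with scrambled REVERSIR to 72.6 with the siRNA, a ratio of 1.20. The PBS libraries of Mat1a alone spread from 56.9 to 75.9 CPM, which covers all but 3 of the treated libraries, at 55.0, 56.0 and 78.0 CPM. Ahcy was the steadiest member, with group means from 396 to 437 CPM and a ratio of 1.11. Its 95% intervals on the log2 scale against PBS lay within −0.09 and 0.18 for all treatments other than scrambled REVERSIR alone. Ahcy counts are uncertain, because 2086 and 2083 bases of its exons recur elsewhere at 99.7% and 98.7% identity, in Gm4737 and the pseudogene Gm9826, which held 1868 and 212 reads beside 43650 for Ahcy.

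Pemt, Gamt and Sardh overlapped with PBS in every group. Pemt (chromosome 11, 59784116 to 59859991, minus strand), which makes phosphatidylcholine from phosphatidylethanolamine, had group means from 14.1 to 16.8 CPM and ranged over 10.7 to 21.2 CPM. Sardh (chromosome 2, 27043913 to 27103857, minus strand) had group means from 25.6 to 30.5 CPM. Gamt (chromosome 10, 79720896 to 79723757, minus strand) had the widest spread, from 2.47 ± 1.22 CPM with scrambled REVERSIR, on 10, 4 and 4 reads, to 4.08 ± 0.376 with PBS. For Gamt the 95% interval of siRNA against PBS was −0.74 to 0.44 on the log2 scale, which leaves room for changes as large as those of Gnmt and Bhmt.

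Counted over the 9 members, none passed the test with the siRNA against PBS, beside 2.62% of all genes. None passed with TTR REVERSIR (0.699%) or with siRNA and TTR REVERSIR (0.789%). With scrambled REVERSIR Gnmt was past the threshold beside 0.421% of all genes, from which nothing is read. Members whose 3 libraries did not overlap with PBS numbered 3 of 9 with the siRNA (Gnmt lower, Cbs and Cth higher; 19.4% of all genes), 3 with TTR REVERSIR (Gnmt and Bhmt lower, Cbs higher; 12% of all genes), 2 with siRNA and scrambled REVERSIR (Bhmt lower, Cbs higher; 19.2%) and 2 with siRNA and TTR REVERSIR (Gnmt and Bhmt lower; 16%). With scrambled REVERSIR they numbered 5, beside 14.5%, again as a description. All these counts use the PBS libraries on which Gnmt was chosen, so nothing is read from Gnmt in them. Against scrambled REVERSIR alone they numbered 3 with TTR REVERSIR (Gnmt and Ahcy higher, Cth lower; 10.8% of all genes) and 4 with siRNA and scrambled REVERSIR (Gnmt, Mat1a and Ahcy higher, Cth lower; 14.5%), which share libraries with the choice of the genes. The median log2 difference of the members was 0.06, −0.01, 0.03 and −0.10 in the 4 comparisons other than scrambled REVERSIR, in the order siRNA, TTR REVERSIR, siRNA with scrambled, siRNA with TTR REVERSIR, against medians over all genes between −0.01 and 0.00.

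The comparisons that use neither PBS nor scrambled REVERSIR alone share no library with the choice of the genes. In siRNA with scrambled REVERSIR against siRNA, 0 of 9 members and 0% of all genes passed the edgeR test, with 415 genes (3.72%) at an unadjusted p under 0.05, Bhmt the 1 member among them, and 0 calls by DESeq2. Cth was the 1 member without overlap there, beside 12.4% of all genes. In siRNA with TTR REVERSIR against siRNA, 0 of 9 members passed beside 0.00897% of all genes, and 0 of 9 passed against siRNA with scrambled REVERSIR (0.00897%). No member was free of overlap in either, beside 13.3% and 9.32% of all genes. In siRNA with TTR REVERSIR against TTR REVERSIR, 0 of 9 and 0% of all genes passed, with 495 genes (4.44%) at an unadjusted p under 0.05, none a member, and 0 calls by DESeq2. Mat1a and Bhmt were higher there without overlap, beside 10% of all genes. The return of Ttr, by 2.12 on the log2 scale with TTR REVERSIR on top of the siRNA, thus came with differences of 0.01 for Gnmt (95% interval −0.17 to 0.19), −0.06 for Mat1a (−0.25 to 0.12), −0.02 for Ahcy (−0.14 to 0.11), −0.16 for Cbs (−0.32 to 0.00) and −0.01 for Cth (−0.17 to 0.16). For Sardh it was −0.27 (−0.54 to 0.01), for Bhmt −0.14 (−0.39 to 0.12) and for Pemt −0.07 (−0.40 to 0.26). Gamt had the widest interval, at −0.11 (−0.66 to 0.43). These intervals are the limit of what 3 libraries a group can tell, and do not show that the groups act alike.

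**Figure D3:**
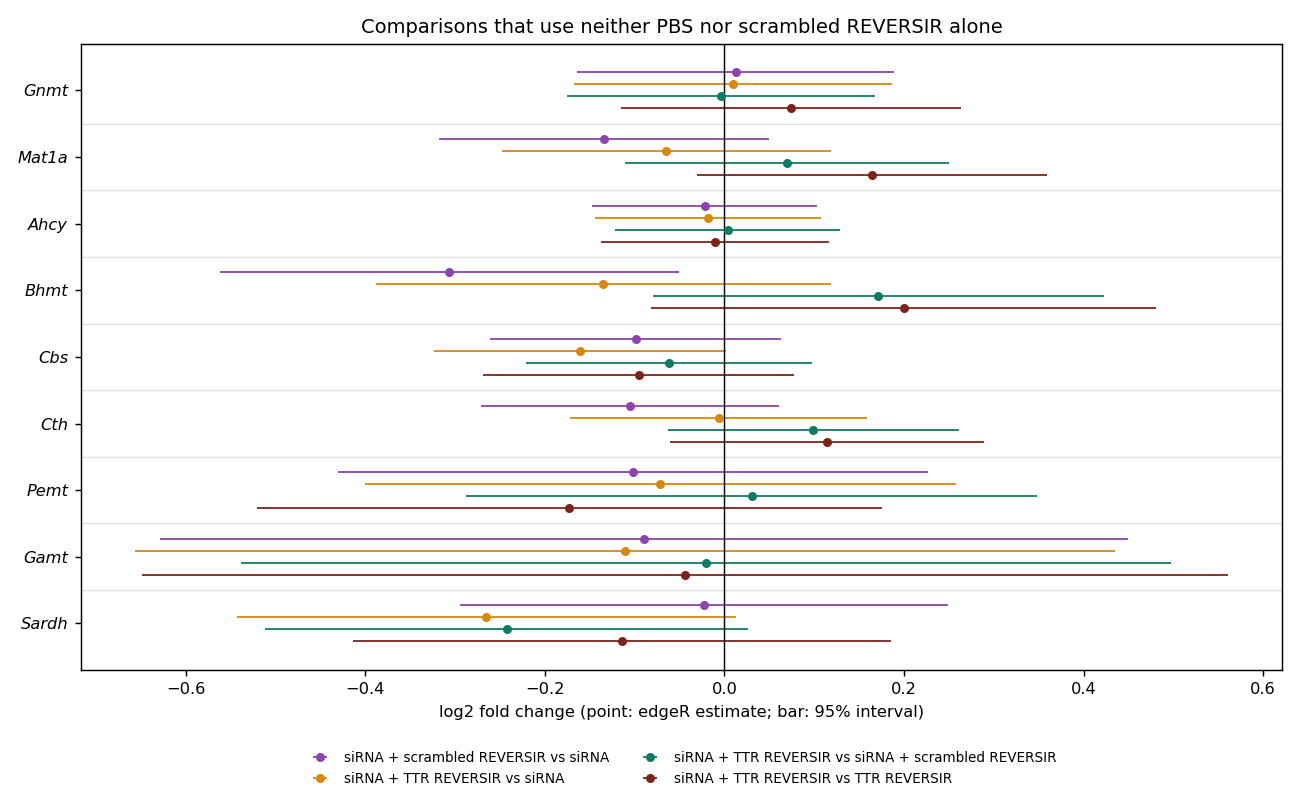
Log2 fold change (x axis) of the 9 genes (y axis) in the 4 comparisons of pairs that use neither PBS nor scrambled REVERSIR alone, as edgeR estimates with 95% intervals. The 4 Gnmt points lie between −0.00 and 0.07, and the Bhmt interval for siRNA with scrambled REVERSIR against siRNA, −0.56 to −0.05, is the one that does not reach 0.

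Beyond the members, 8 lists of one-carbon genes held 90 symbols with the members among them, of which 87 could be tested. With the siRNA against PBS, 4 of the 87 rose and 2 fell, beside 1.01% of all genes higher and 1.6% lower. Ftcd, Shmt1 and Mthfd1 handle folate-bound one-carbon units and come from the 18 tested genes of the folate list. Ftcd, which feeds carbon from histidine breakdown into folate, stood at 67.8, 72.1 and 73.4 CPM with PBS and at 89.2, 90.3 and 81.5 CPM with the siRNA. Ftcd rose by 0.29 ± 0.08 (edgeR adjusted p = 0.0440). The groups did not overlap.

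Shmt1, the cytosolic enzyme that exchanges serine and glycine, stood at 22.2, 19.6 and 22.7 CPM with PBS and at 30.4, 27.7 and 27.8 CPM with the siRNA, a rise of 0.41 ± 0.11 (edgeR adjusted p = 0.0393). Mthfd1, which interconverts the cytosolic folate forms, stood at 32.3, 36.0 and 36.3 CPM and at 42.2, 45.7 and 42.7 CPM, a rise of 0.32 ± 0.09 (edgeR adjusted p = 0.0442). Neither overlapped. In the transsulfuration and sulfide list of 12, Mpst, a sulfurtransferase of cysteine breakdown, rose by 0.67 ± 0.16 (edgeR adjusted p = 0.0288), from 8.93, 10.1 and 10.1 CPM to 14.8, 17.3 and 14.4 CPM. Group means of these 4 genes were higher than with PBS in all 5 treated groups.

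The genes of that list that fell with the siRNA were Cdo1, which oxidises cysteine, and Gclc, the catalytic subunit that starts glutathione synthesis. They fall outside the rule for naming genes and were chosen after their values were seen. Cdo1 fell by 0.31 ± 0.08 (edgeR adjusted p = 0.0452) and Gclc by 0.26 ± 0.07 (adjusted p = 0.0480), but with library totals in place of TMM both turned, to 0.02 and 0.06. Cdo1 stood at 1141 and 1141 CPM in PBS replicates 1 and 2 and at 879 CPM in replicate 3, so the groups overlapped, with 916, 835 and 792 CPM for the siRNA. Without PBS replicates 1 and 2 the difference of Cdo1 was −0.05, and that of Gclc was −0.16. Neither passed then, nor did Ftcd (0.25), Shmt1 (0.34), Mthfd1 (0.27) or Mpst (0.61), against 1 PBS library.

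With the other treatments fewer of the 87 passed. Ftcd rose with TTR REVERSIR too, to 93.9, 80.9 and 90.3 CPM (0.33 ± 0.08, edgeR adjusted p = 0.0478), beside 0.341% of all genes higher and 0.359% lower. With siRNA and TTR REVERSIR, Mtrr, which reactivates methionine synthase, rose to 24.1, 26.8 and 22.0 CPM from 15.3, 16.9 and 19.7 (0.50 ± 0.12, edgeR adjusted p = 0.0494), and the choline kinase gene Chka rose to 139, 140.4 and 153 CPM from 112, 114 and 118 (0.33 ± 0.08, adjusted p = 0.0449), beside 0.35% of all genes higher and 0.439% lower. With siRNA and scrambled REVERSIR, Bhmt was the 1 gene of 87. With scrambled REVERSIR alone the lists held Gnmt and the polyamine acetyltransferase gene Sat1 past the threshold, from which nothing is read. These 5 comparisons share the PBS libraries, so their calls are not independent of each other. In the 6 other comparisons of 2 groups, in the test over 4 groups and in the interaction, 0 of 87 passed.

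**Figure D4:**
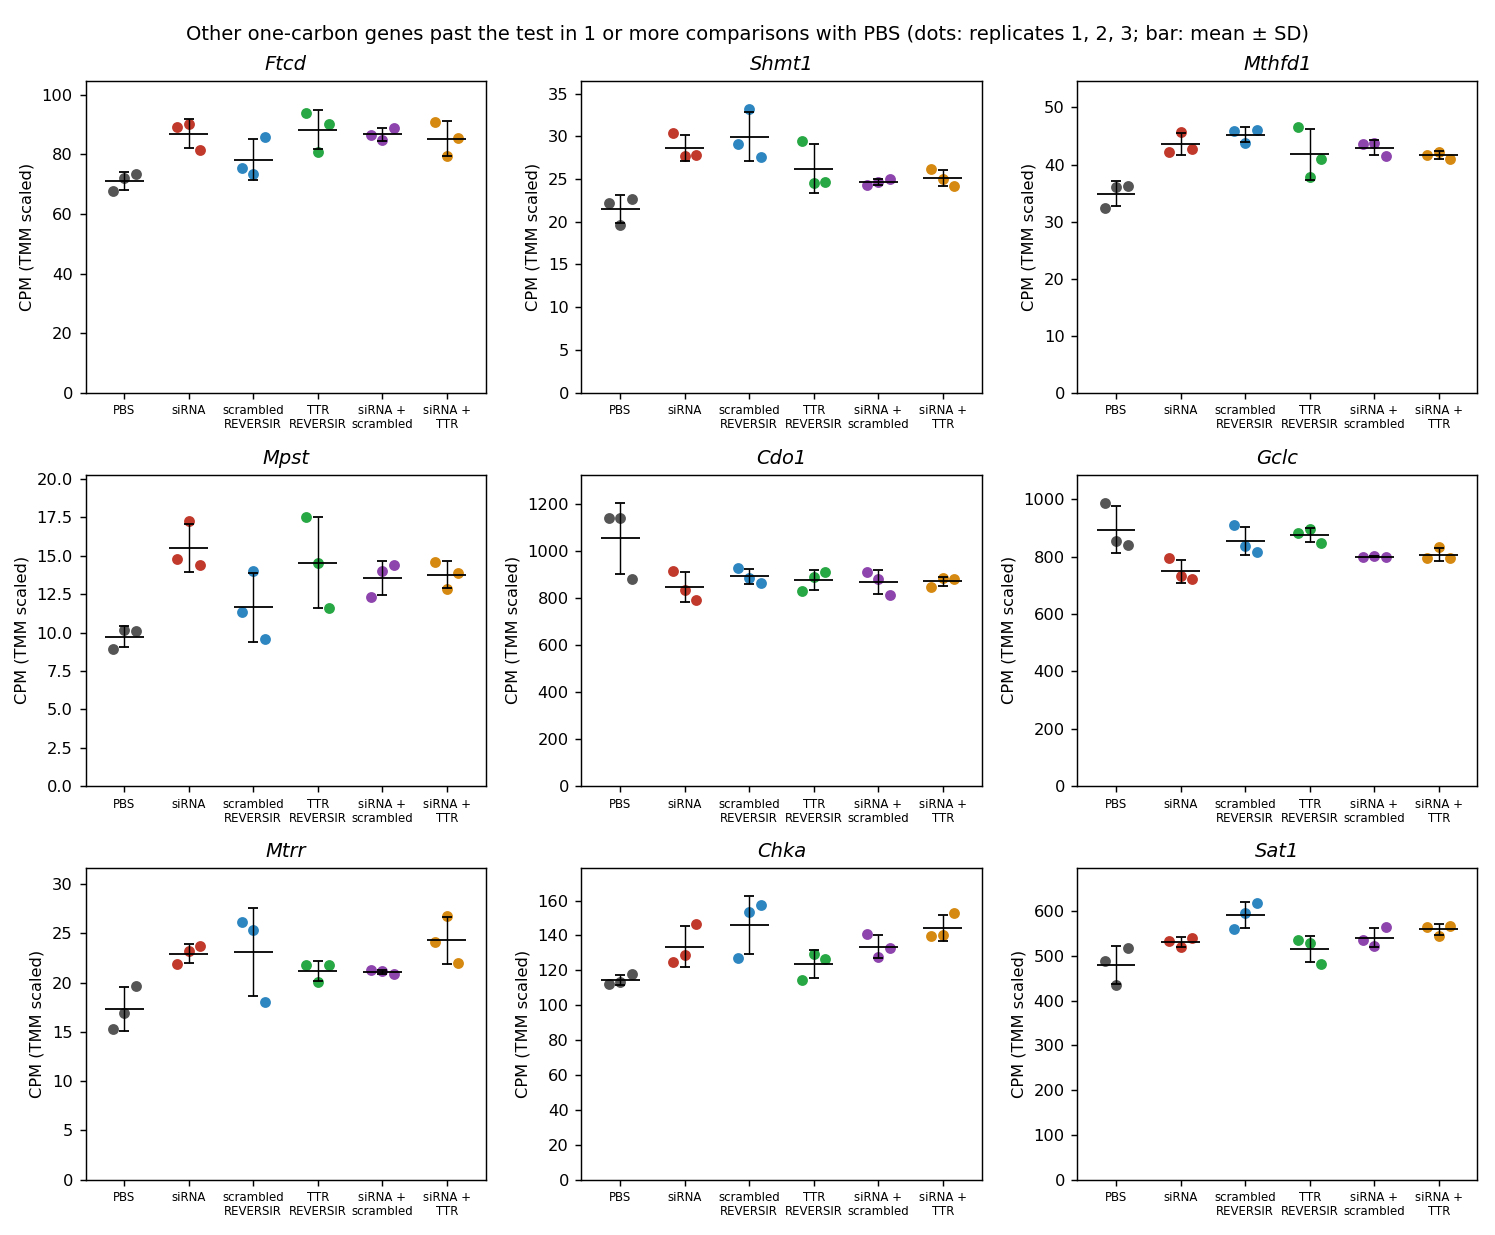
CPM after TMM scaling (y axis, from 0) of 9 other one-carbon genes past the test in 1 or more comparisons with PBS, by group (x axis), with 1 dot per library and the mean ± SD as a bar. Ftcd, Shmt1, Mthfd1 and Mpst have their lowest group mean with PBS, at 71.1, 21.5, 34.9 and 9.72 CPM, and the 2 high PBS libraries of Cdo1 are those at 1141 CPM.

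All calls on these genes rest on the PBS libraries. Each of the 9 calls in the wider lists outside scrambled REVERSIR was lost without PBS replicate 1 and without PBS replicate 2, and each was kept without PBS replicate 3. Each was also lost without any 1 library of its treated group, except Ftcd with TTR REVERSIR, which was kept without TTR REVERSIR replicate 2 (edgeR adjusted p = 0.0158). All 9 were lost in edgeR fits of the compared groups only. Mthfd1 did not pass with DESeq2 either (adjusted p = 0.0576) or with no filter on low counts (edgeR adjusted p = 0.0741). For Bhmt, at 31.9, 31.1 and 34.0 CPM, PBS replicate 3 was as high as the 2 libraries rich in mitochondrial ribosomal RNA. For Gnmt the PBS libraries were at 44.2, 49.1 and 41.6 CPM, with replicate 3 the lowest, and without replicates 1 and 2 the difference with scrambled REVERSIR was −0.45 instead of −0.56. Removing the counts of mitochondrial ribosomal RNA before scaling kept all 118 gene values so recomputed on their side of the threshold, with Bhmt at −0.53 (edgeR adjusted p = 0.0477) for siRNA with scrambled REVERSIR. What else sets those 2 libraries apart was not tested.

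**Figure D5:**
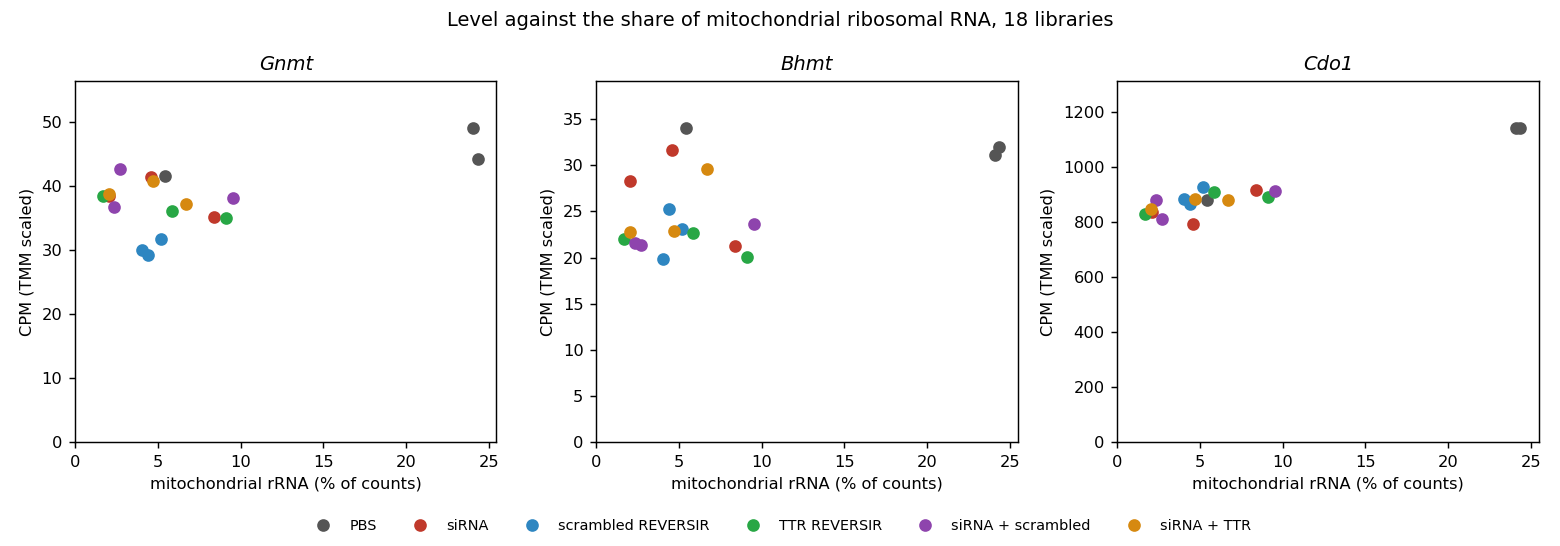
CPM after TMM scaling of Gnmt, Bhmt and Cdo1 (y axes, from 0) against the share of counts from mitochondrial ribosomal RNA in percent (x axis), 1 dot per library, coloured by group. PBS replicates 1 and 2 lie at 24.3% and 24.1%, and PBS replicate 3 lies beside them in height for Bhmt (34.0 CPM) but not for Cdo1 (879 CPM).

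As a description, the genes whose log2 CPM followed Gnmt most closely over the 18 libraries, among 8479 genes compared, were AI837181 (Pearson r = 0.89), the carboxylesterase gene Ces1e (0.84), Ndufa4l2 (0.81), Mrp63 (0.78) and Foxj3 (0.78). Spearman's rho was 0.68, 0.73, 0.66, 0.65 and 0.76. Without the 2 libraries farthest from the median of Gnmt, r was 0.79, 0.75, 0.64, 0.60 and 0.62. The libraries fall into treatment groups and differ in depth, so that these are not 18 independent points. They include the PBS and scrambled REVERSIR libraries on which Gnmt was chosen, its highest and lowest groups. Every r with Gnmt given here, also that of other members, rests in part on that choice. Of the other members, Bhmt had the highest r with Gnmt, 0.54, then Gamt (0.46), Ahcy (0.45), Sardh (0.26), Mat1a (0.25) and Pemt (0.25), while Cbs (−0.43) and Cth (−0.61) ran opposite. Without the same 2 libraries r was, in this order, 0.58, 0.30, 0.50, 0.16, 0.48, −0.15, −0.49 and −0.28. Spearman's rho over all 18 libraries was 0.53, 0.21, 0.41, 0.24, 0.36, 0.10, −0.44 and −0.35. Pemt thus changed sign without those libraries, and the Cth value was weaker. Over the 36 pairs of members r over all 18 libraries had a median of 0.25 and ran from −0.61 to 0.54.

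Bhmt and Sardh also share stretches of at least 95% identity with other genes. For Bhmt these were 218 bases of Bhmt2, which held 2509 reads. Copies of 1872 bases lay in Bhmt-ps1, at 98.7% identity, and in an annotated pseudogene, at 99.4%. These copies held 2 and 9 reads beside 2565 for Bhmt. How reads that match more than 1 place were counted was not given. Bhmt counts, and its place in the order of levels, are thus uncertain too. For Sardh they were 318 bases in 1300010F03Rik, which held 8492 reads beside 2878 for Sardh. Antisense genes annotated over Gnmt, Bhmt and Sardh held 0, 0 and 1 reads.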

How the data were processed

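RNA of 18 hepatocyte libraries was sequenced, and STAR, DESeq2 and the build NCBIM37 were used per the submitters' processing notes. Tool versions, the counting tool, strand and filters were not given in the sources used here. Raw whole-number counts per gene were deposited by the authors, 1 file a library. The authors also deposited 5 tables against PBS. In these the authors list a mean signal, a log2 fold change, its error, a test score, and p-values raw and adjusted. Their largest standard error was 0.110.

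Here edgeR 4.0.16 (R 4.3.3) fitted quasi-likelihood models to all 18 libraries with the group as the only term, after filterByExpr and TMM scaling, with 12 residual degrees of freedom. P-values over 13 comparisons were each adjusted by Benjamini-Hochberg over 11153 genes, with 0.05 as the threshold for a call. Values after ± beside log2 differences are standard errors, |log2 difference| divided by the root of F, and intervals use the t distribution. CPM are counts divided by the TMM-scaled library totals, and log2 CPM used a prior count of 2. Of 37991 gene identifiers, 37205 matched the annotation of the same build (GENCODE), from which exon lengths came. Promoter starts came from RefSeq for the 7 members with an entry. The fitting code was tested on simulated data with known changes.

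Members, gene lists and alternatives were chosen with earlier results of these data known. The rule for naming genes took the 9 members, Ttr, up to 4 genes of the wider lists per comparison past 0.05 with the smallest p, and the 5 genes most correlated with Gnmt among genes averaging 3 or more in log2 CPM. The wider lists were the methionine cycle, transsulfuration and sulfide, choline and betaine, small-molecule methyltransferases, folate, glycine and serine, methionine salvage and polyamines, and cobalamin. Of their 90 symbols 1 matched no gene and 2 (Gatm, Folr2) failed the filter. Alternatives were DESeq2 1.42.0, its size factors in edgeR, library totals alone, no filter, fits of the compared groups only, each library left out, PBS replicates 1 and 2 left out, mitochondrial ribosomal RNA removed, and a replicate block. No replicate pair agreed within sampling noise.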

Additional observations from a re-analysis of the deposited data

How the results depend on the processing

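With library totals in place of TMM, the median of all genes moved by 0.29 to 0.33 in log2 against PBS. Members called then numbered 4 with siRNA (Mat1a, Cbs, Ahcy, Cth, all higher), 2 with scrambled REVERSIR (Cbs, Cth) and 3 with TTR REVERSIR. They numbered 3 with siRNA and scrambled REVERSIR and 4 with siRNA and TTR REVERSIR. Of 11153 genes 3844, 1580, 2883, 3557 and 4089 were called in that order. Bhmt and Gnmt were not called. Cdo1 was then at 0.0169 and Gclc at 0.0593 with siRNA, both reversed. With no filter on low counts, 2 members were called with scrambled REVERSIR (Gnmt and Bhmt), 1 with TTR REVERSIR (Bhmt) and 1 in the interaction (Gnmt). Of 20065 genes, 424, 498 and 214 were called there in the same order. Gnmt was chosen on scrambled REVERSIR against PBS, which the interaction contains, so nothing is read from the calls in either. In fits of the compared groups only, and without PBS replicates 1 and 2, 0 members were called with scrambled REVERSIR and 0 with siRNA and scrambled REVERSIR. The cause of these shifts was not tested.

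Leaving out 1 library at a time, members called ranged from 0 to 2 with siRNA, 0 to 2 with scrambled REVERSIR, 0 to 2 with TTR REVERSIR, 0 to 1 with siRNA and scrambled REVERSIR, 0 to 1 with siRNA and TTR REVERSIR and 0 to 2 in the interaction. Without PBS replicate 3, 2 were called with siRNA (Mat1a and Cth), 2 with scrambled REVERSIR (Gnmt and Cth), 2 with TTR REVERSIR (Gnmt and Bhmt), 1 with siRNA and TTR REVERSIR (Cth) and 2 in the interaction (Gnmt and Cth). Calls rose over all genes too in that setting, to 1365, 749, 978, 1151 and 381 of 11419 in the same order. The counts with scrambled REVERSIR and in the interaction rest on the contrast that chose Gnmt, and nothing is read from them. The Gnmt call with TTR REVERSIR uses PBS libraries of that contrast, and nothing is read from it either. Counts over all genes depend on the same libraries: with siRNA 292 genes were called, 1 to 1365 with 1 library left out, 386 with DESeq2, 3844 with library totals, 677 with no filter and 1 in a fit of siRNA and PBS only. Calls higher were 113 of 292 as reported and 3819 of 3844 with library totals. For scrambled REVERSIR the counts were 47 as reported, 169 with DESeq2, 1580 with library totals, 424 with no filter and 7 in the fit of those groups. For TTR REVERSIR they were 78, 155, 2883, 498 and 0, for siRNA with scrambled REVERSIR 68, 162, 3557, 564 and 7, and for siRNA with TTR REVERSIR 88, 180, 4089, 585 and 1. The interaction gave 2 as reported, 41 with DESeq2 and 214 with no filter. With 1 library left out the counts ran from 0 to 749 with scrambled REVERSIR, 0 to 978 with TTR REVERSIR, 1 to 1142 with siRNA and scrambled REVERSIR, 0 to 1151 with siRNA and TTR REVERSIR and 1 to 381 in the interaction.

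The replicate numbers gave no clear pairing of the libraries: of 15 pairs of groups 0 had every same-numbered correlation over 0.1. Single correlations ran from −0.15 to 0.29, and 6 of 18 libraries correlated best with their own number. With 3 libraries a group a weak pairing could be missed. A replicate block added 1 member with TTR REVERSIR (Bhmt, −0.57, adjusted p = 0.0499) and changed no other count of members. It lost 4 of the 9 calls on wider one-carbon genes: Ftcd (adjusted p = 0.0530) and Mthfd1 (0.0580) with siRNA, Ftcd with TTR REVERSIR (0.0635) and Mtrr with siRNA and TTR REVERSIR (0.0691). Over all genes it moved the count from 88 to 47 with siRNA and TTR REVERSIR and from 2 to 4 in the interaction. Over all 1617 values of single genes under the alternatives, 1498 stayed on the same side of the threshold with no called value changing sign, 89 lost a call, 28 gained one and 2 reversed. Of all these values 112 changed sign, 70 with 1 library left out and 31 with library totals, and those among them that were called as reported are the 2 reversed. Depth limits Gamt and Pemt most, with as few as 4 and 19 reads in a library.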
